A study of Mus musculus with 12 samples.

Results

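Loss of caspase-9 was set against loss of Bak and Bax, gene by gene, in mouse blood progenitors. The effect of caspase-9 loss was the mean of Casp9 KO arrays minus that of WT arrays of experiment 1, and the effect of Bak and Bax loss was the mean of Bak/Bax DKO arrays minus that of WT arrays of experiment 2. The quantity tested was the first effect minus the second, called the difference below, so that a positive difference means a larger rise or a smaller fall in Casp9 KO cells. All 12 arrays of the series entered it, 3 in each of 4 groups, which were Casp9 KO, WT experiment 1, Bak/Bax DKO and WT experiment 2. The 2 effects share no array.

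Bak and Bax are the effector proteins that open the outer mitochondrial membrane when a cell is driven into apoptosis. Cytochrome c then escapes, binds Apaf1 and switches on caspase-9, which cleaves the executioner caspases. A cell without caspase-9 can therefore still lose the integrity of its mitochondria, whereas a cell without Bak and Bax does not open them by this route. Type I interferon is known to be made when apoptotic caspases are missing and mitochondrial DNA leaves the organelle, and it acts through its receptor and the factor Irf9 on a large set of antiviral genes. The comparison asks what is seen when the pathway is blocked after the mitochondria but not before, and what is seen with either block.

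The cells came from femur and tibia and were sorted as negative for lineage markers and positive for Kit and CD45.2, which gives a mixture rich in stem and progenitor cells (C57BL/6 strain). Every group, WT included, came from chimeras, 12 to 16 weeks after transplantation of fetal liver cells of embryonic day 13.5, so the genotype was that of the transplanted blood system. RNA was read on Illumina Mouse WG6V2 BeadChips, and each experiment, a genotype with its own WT, had a beadchip of its own. Beadchip and experiment therefore cancel within each effect but cannot be separated from each other. The labels call the 3 samples of a group independent and name no animals, and the p-values cover only the variation among these samples, which may be technical. In bulk RNA, fewer cells of a type and less RNA per cell cannot be told apart.

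Of 45281 probes, 18867 had a detection score above 0.95 on at least 3 of 12 arrays, and 1 probe per gene was kept, which left 11800 genes. Between 35.7% and 39.7% of probes were above background on each array. One array stood apart. Bak/Bax DKO replicate 2 had a mean intensity of 234.5, against 321.5 to 522.0 on the other 11, and correlated at 0.721 to 0.743 with them across genes, against 0.965 to 0.994 among the others. On it, 656 genes lay more than 3 log2 units under the mean of Bak/Bax DKO replicates 1 and 3, whereas no other array had more than 4 such genes. Results are therefore given with and without this array. Kit was high in every group, with means of 11.79 in Casp9 KO, 12.08 in WT experiment 1, 12.80 in Bak/Bax DKO and 12.10 in WT experiment 2 on the log2 scale, while the T-cell gene Cd4 was above background on at most 1 array of any group. The Y-linked gene Eif2s3y was above background on 2 Casp9 KO, 1 WT experiment 1, 3 Bak/Bax DKO and 2 WT experiment 2 arrays, and sex may not be balanced between groups.

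The targeted genes bore out the labels. Casp9 (probe at chr4:141371743-141371792, in the files' coordinates, with no build given in the sources at hand) stood at 5.37, 5.24 and 5.48 in Casp9 KO arrays, against 8.02, 8.99 and 8.83 in WT experiment 1 arrays, while Bak/Bax DKO arrays had 9.20, 9.27 and 9.02 and WT experiment 2 arrays 9.36, 8.99 and 9.13. Bak1 (chr17:27157109-27157158) was at 4.60, 4.52 and 4.75 in Bak/Bax DKO arrays, none of them above background, against 6.27, 6.59 and 6.74 in WT experiment 2 arrays, which is at least 3.09-fold lower. Bax (chr7:52717276-52717325) was lower without reaching background, at 7.72, 8.02 and 7.91 in Bak/Bax DKO arrays and 9.34, 9.998 and 9.76 in WT experiment 2 arrays, or 0.284-fold. Neither Bak1 nor Bax was called in Casp9 KO cells, where their effects were 0.27 and 0.04 log2 (adjusted p = 0.62 and 1.0). A second, weaker Casp9 probe, detected on 5 arrays, had effects of 0.15 in Casp9 KO and -0.33 in Bak/Bax DKO and did not show the loss.

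Across all genes, 234 were called in the difference (1.98% of 11800, limma, adjusted p under 0.05), 101 positive (0.856%) and 133 negative (1.13%). Without Bak/Bax DKO replicate 2, 837 genes were called (7.09%; 3.92% positive and 3.18% negative), and they included all 234, each with its sign. The median difference over all genes was -0.12 with that array and -0.04 without it, so single values are best read against those medians. The Casp9 KO effect had 172 called genes (1.46%), of which 124 rose (1.05%), and the Bak/Bax DKO effect 244 (2.07%), of which 188 rose (1.59%). Without Bak/Bax DKO replicate 2 they had 5.82% and 4.04% of genes called. The effects were not correlated across genes (Pearson r 0.009, as a description, since genes are not independent). The 234 fell into clear patterns. The largest, with 75 genes, rose in Bak/Bax DKO cells without a call in Casp9 KO cells, and 33 genes fell in Bak/Bax DKO cells without one. In Casp9 KO cells 31 genes rose and 14 fell without a call in Bak/Bax DKO cells. Another 8 rose in both but more in Casp9 KO cells, 5 were called in opposite directions, and 68 passed only in the difference. Of the 656 genes that were low on Bak/Bax DKO replicate 2, none was among the 234 and 26 were among the 837.

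**Figure D1:**
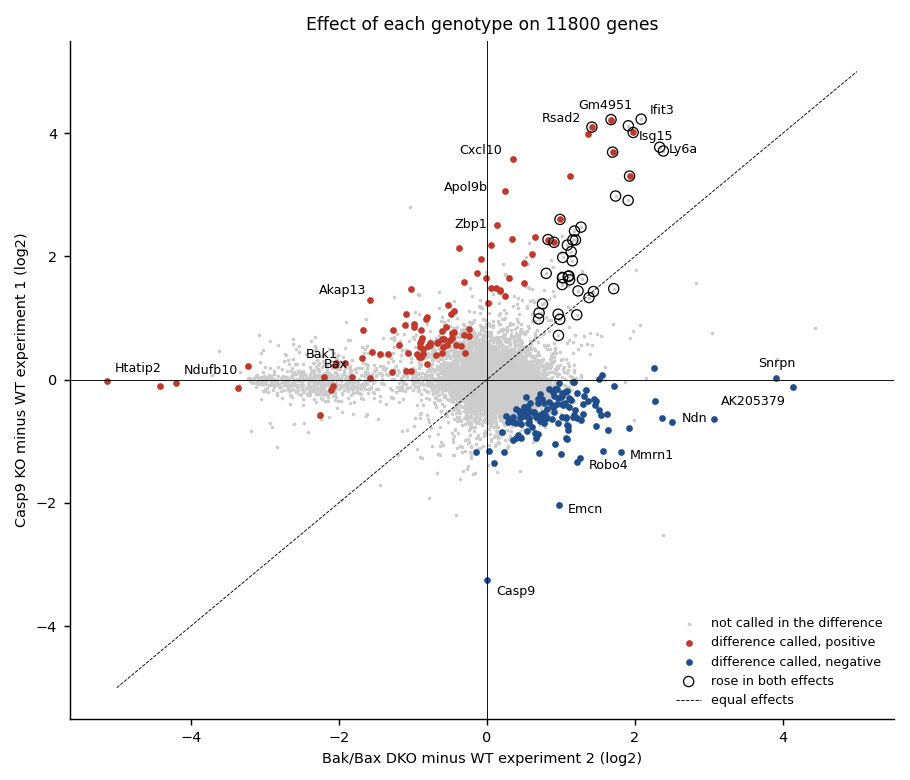
Effect of each genotype on the 11800 genes, with the Bak/Bax DKO effect on the horizontal axis and the Casp9 KO effect on the vertical axis (log2). Red and blue points are the 101 positive and 133 negative called differences, open circles the 41 genes that rose in both effects, which lie mostly above the dashed line of equal effects.

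**Figure D2:**
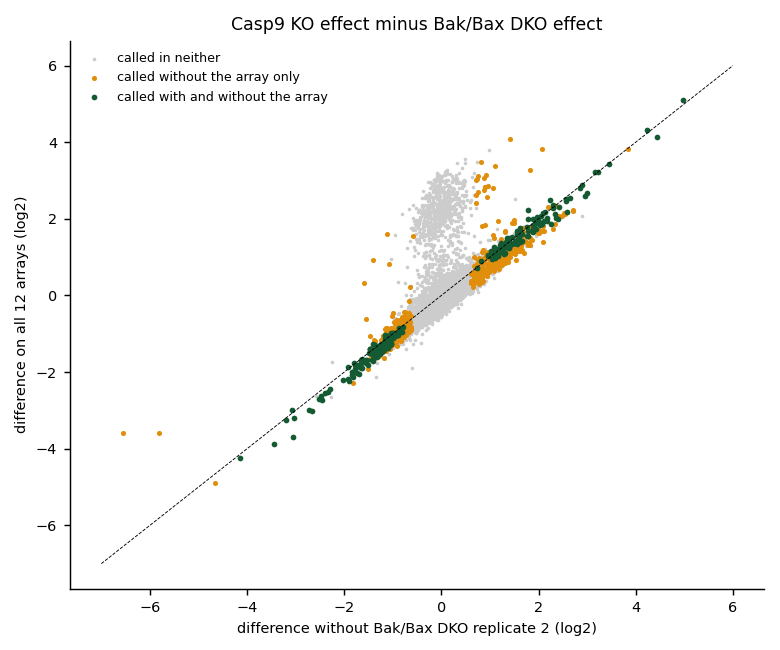
The difference of each gene on all 12 arrays (vertical axis, log2) against the difference without Bak/Bax DKO replicate 2 (horizontal axis, log2). All 234 genes called on 12 arrays (green) stayed called without that array, orange points passed only without it; grey points far from the diagonal are genes whose difference moved when it was left out.

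Genes called in the same direction in both effects on 12 arrays were all rises. Of the 11800 genes, 41 rose in both effects (0.347%) and 0 fell in both by limma (29 at unadjusted p under 0.05 in each; 7 fell in both without Bak/Bax DKO replicate 2, when 58 rose in both, 0.492%). The 41 made up 23.8% of the genes called in Casp9 KO cells and 16.8% of those called in Bak/Bax DKO cells. Of the 41, 15 are in the list of antiviral interferon-stimulated genes, described below. Their median rise was 1.98 log2 in Casp9 KO cells and 1.16 log2 in Bak/Bax DKO cells, the rise was larger in Casp9 KO cells for 35 of 41, and the median gene had a Bak/Bax DKO rise 0.612 of its Casp9 KO rise. For 33 of them the difference was not called. With Bak/Bax DKO replicate 2 left out, 22 of the 41 were called in the difference.

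Isg15 encodes a ubiquitin-like protein that is attached to other proteins after interferon. It stood at 11.55, 11.70 and 11.47 in Casp9 KO arrays, against 7.32, 7.73 and 7.31 in WT experiment 1 arrays, a 17.4-fold rise. In Bak/Bax DKO arrays it stood at 8.04, 9.80 and 8.53, against 6.42, 7.17 and 7.03 in WT experiment 2 arrays, a 3.76-fold rise. Neither pair of groups overlapped, and the Bak/Bax DKO arrays all lay below the Casp9 KO arrays. The difference of 2.21 ± 0.53 log2 (SE) did not pass on 12 arrays (adjusted p = 0.064), but did without Bak/Bax DKO replicate 2 (2.71 log2, adjusted p = 0.00023).

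Ifit3, whose product binds viral RNA complexes, was at 8.81, 9.85 and 9.72 in Casp9 KO arrays, against 5.18, 4.97 and 5.55 in WT experiment 1 arrays. It was at 6.46, 7.99 and 7.23 in Bak/Bax DKO arrays, against 4.99, 5.32 and 5.11 in WT experiment 2 arrays. The rises were 18.7-fold and 4.24-fold, with a difference of 2.14 log2 (95% interval 0.98 to 3.30, adjusted p = 0.068). Of 2 further Ifit3 probes, detected on 4 and 5 arrays and so near background on most, the effects were 2.32 and 2.24 log2 in Casp9 KO and 0.66 and 0.62 log2 in Bak/Bax DKO cells. Oas2, which makes the oligoadenylate that activates RNase L, rose 13.1-fold in Casp9 KO cells and 5.22-fold in Bak/Bax DKO cells, and its difference of 1.32 log2 (0.54 to 2.11) was not called (adjusted p = 0.089). Without Bak/Bax DKO replicate 2 both passed, at 2.53 and 1.48 log2 (adjusted p = 0.0024 and 0.015).

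Ly6a, the stem cell surface marker Sca-1 and itself induced by interferon, rose strongly in both. It was at 11.47, 12.24 and 12.21 in Casp9 KO arrays, against 8.02, 8.11 and 8.48 in WT experiment 1 arrays. It was at 9.51, 11.08 and 10.01 in Bak/Bax DKO arrays, against 7.33, 8.42 and 7.84 in WT experiment 2 arrays. These are rises of 13.7-fold and 5.05-fold. The difference of 1.44 log2 had an interval of 0.19 to 2.68 and was not called (adjusted p = 0.23; 1.88 log2 and 0.015 without Bak/Bax DKO replicate 2). A few shared genes moved by nearly the same amount in both, among them the receptor kinase gene Axl, at 1.43 in Casp9 KO and 1.44 in Bak/Bax DKO cells, Lag3 and the serpin gene Serpina3g, none of them called in the difference.

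Among the shared genes, 8 rose further in Casp9 KO cells by the test of the difference, namely Rsad2, Gm4951, Usp18, Irf7, Mx2, Ifi205, Oasl2 and Dhx58. Rsad2 encodes viperin, which blocks viral replication. It was at 10.52, 10.92 and 10.47 in Casp9 KO arrays against 6.22, 6.77 and 6.62 in WT experiment 1 arrays, and at 8.41, 9.33 and 8.30 in Bak/Bax DKO arrays against 6.90, 7.61 and 7.27 in WT experiment 2 arrays. That is 17.1-fold and 2.67-fold, with a difference of 2.68 ± 0.41 log2 (adjusted p = 0.0098). Irf7, the transcription factor that amplifies interferon production, rose 12.9-fold in Casp9 KO cells, at 9.17, 9.32 and 9.17 against 5.52, 5.79 and 5.28 in WT experiment 1 arrays. It rose 3.25-fold in Bak/Bax DKO cells, at 5.91, 7.41 and 6.52 against 4.98, 4.87 and 4.89 in WT experiment 2 arrays (difference 1.99 log2, adjusted p = 0.044). Usp18, which strips Isg15 from proteins and damps the interferon receptor, differed by 2.03 log2 (adjusted p = 0.025). The calls for Irf7 and Usp18 were lost in 10 and 6 of the 12 fits that leave out 1 array, while that for Rsad2 was kept in all.

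Other interferon-stimulated genes rose in Casp9 KO cells with no call in Bak/Bax DKO cells. Cxcl10, a chemokine that attracts T cells, was at 7.75, 8.13 and 8.09 in Casp9 KO arrays, against 4.35, 4.47 and 4.40 in WT experiment 1 arrays, none of which was above background, and so at least 8.09-fold higher. In Bak/Bax DKO arrays it was at 4.68, 4.68 and 5.09, with 1 of 3 above background, against 4.56, 4.46 and 4.36 in WT experiment 2 arrays with 0 of 3. All 9 arrays outside Casp9 KO thus lay at or near background. Cxcl10 passed the detection filter only because of the Casp9 KO arrays, so a difference was to be seen in any case. The limma test of the difference (adjusted p = 3.2e-05) is therefore no separate support. The fitted difference of 3.23 log2 is not a measured size, since both WT groups were at background. Another Cxcl10 probe, detected on 3 arrays, had a fitted difference of 1.93 log2. The Bak/Bax DKO effect was 0.36 log2 (0.02 to 0.69, adjusted p = 0.28).

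Apol9b, an apolipoprotein L family gene, was at 7.26, 7.58 and 7.57 in Casp9 KO arrays, at least 5.65-fold above the 4.44, 4.49 and 4.28 of WT experiment 1 arrays. It was not above background on any Bak/Bax DKO array (4.53, 4.74 and 4.71) or WT experiment 2 array (4.43, 4.37 and 4.44). Zbp1, a sensor of nucleic acids in the Z conformation, showed the same layout, at 6.86, 6.97 and 7.32 in Casp9 KO arrays against 4.44, 4.66 and 4.51 in WT experiment 1 arrays, and at 4.46, 4.33 and 4.69 in Bak/Bax DKO arrays against 4.35, 4.28 and 4.43 in WT experiment 2 arrays. Zbp1 was thus at least 4.22-fold higher in Casp9 KO arrays than in WT experiment 1 arrays. The adjusted p of the difference was 3.2e-05 for Apol9b and 0.00045 for Zbp1, but both passed the detection filter through the Casp9 KO arrays alone, so a difference there was to be seen in any case. The Zbp1 probe carries that name in the files, while its Entrez identifier is that of Gm14340 in the RefSeq table.

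The same layout was seen for 2 genes above background on all 12 arrays, for Sp100 by the probe kept only. Gbp3, a guanylate-binding GTPase, was at 10.98, 11.31 and 11.39 in Casp9 KO arrays against 9.34, 9.73 and 9.65 in WT experiment 1 arrays, but at 9.53, 10.33 and 9.82 in Bak/Bax DKO arrays against 9.94, 9.82 and 9.95 in WT experiment 2 arrays, where the groups overlapped. Its Bak/Bax DKO effect was -0.01 log2 (95% interval -0.46 to 0.44) and its difference 1.66 log2 (adjusted p = 0.018). Sp100, a nuclear body protein, rose by 1.44 log2 in Casp9 KO cells and stood 0.17 log2 higher in Bak/Bax DKO cells, which was not called (interval -0.13 to 0.48), with a difference of 1.27 log2 (adjusted p = 0.010). Of 2 further Sp100 probes detected on all 12 arrays, one had a Bak/Bax DKO effect of 0.50 log2 and a difference of 0.75 log2. The other had a Bak/Bax DKO effect of 0.67 log2 and a difference of 0.44 log2. Ifi27l2a was also called, at 2.61 log2 (adjusted p = 0.025). Apol11b and the guanylate-binding gene Gbp5 were called too (adjusted p = 0.049 and 0.015), but were above background on no WT experiment 1 array, and so at least 3.64-fold and 2.03-fold higher in Casp9 KO arrays.

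**Figure D3:**
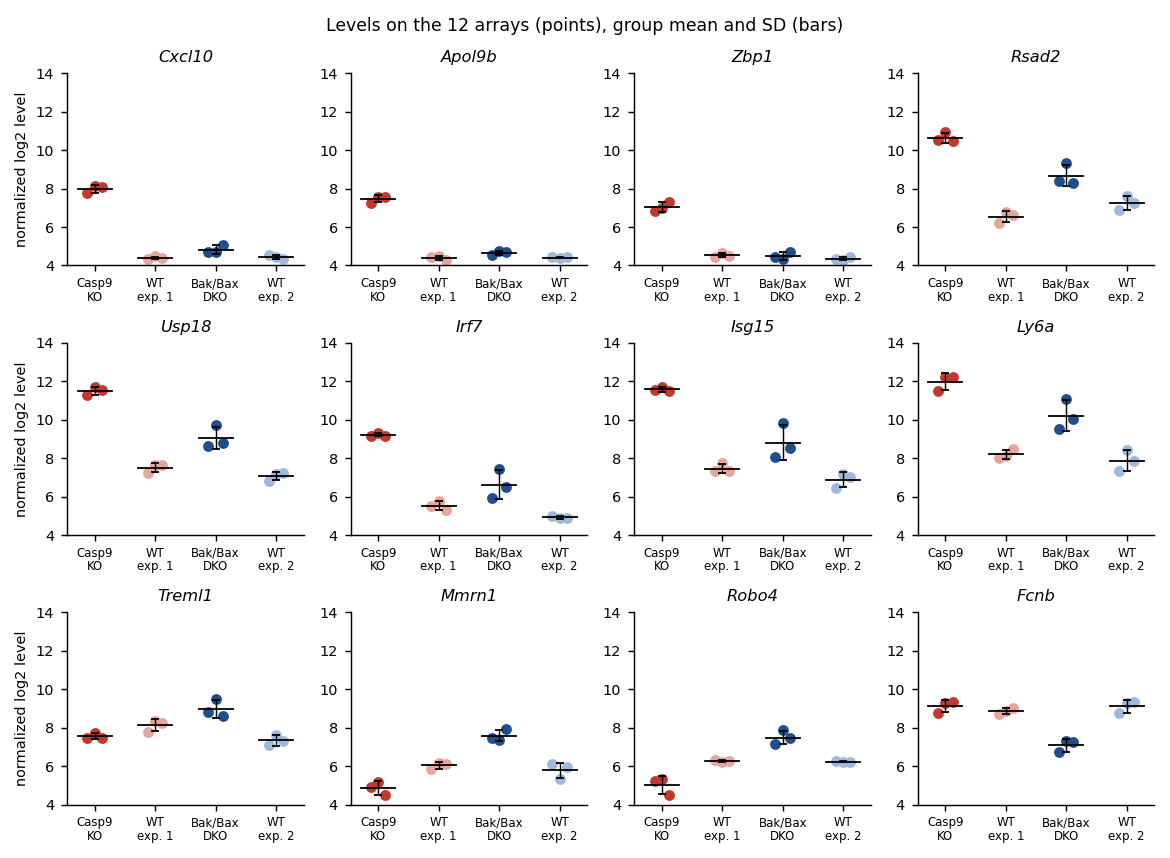
Normalized log2 level of 12 genes on each of the 12 arrays, with the group mean and SD (n = 3). Cxcl10, Apol9b and Zbp1 are high in Casp9 KO arrays alone, Rsad2, Usp18, Irf7, Isg15 and Ly6a are high in Casp9 KO and intermediate in Bak/Bax DKO arrays, and Treml1, Mmrn1 and Robo4 are highest in Bak/Bax DKO arrays.

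The promoters of both classes of gene were read for the core of the interferon-stimulated response element, GAAA, any 2 bases and GAAA again, on either strand, within 250 bases before and 50 after each start in RefSeq (GRCm38.p6). Of the genes tested, 8611 of 11800 had a promoter there. The windows below are those of Cxcl10, Apol9b and Gbp3, which rose in Casp9 KO cells without a call in Bak/Bax DKO cells, of Rsad2 and Ifi205, which rose in both but more in Casp9 KO cells, and of Isg15, Ifit3 and Igtp, which rose in both with no call in the difference on 12 arrays. Each is upstream of the start, on the strand of the gene, with the matched bases in capitals (TTTC, 2 bases and TTTC is the same core read on the other strand, and overlapping matches are joined).
Cxcl10, chr5:92349068-92349127, minus strand: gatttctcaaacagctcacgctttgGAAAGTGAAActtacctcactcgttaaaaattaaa
Apol9b, chr15:77729010-77729069, plus strand: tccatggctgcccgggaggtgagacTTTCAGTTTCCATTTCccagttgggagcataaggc
Gbp3, chr3:142559974-142560033, plus strand: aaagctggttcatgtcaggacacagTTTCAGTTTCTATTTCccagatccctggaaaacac
Rsad2, chr12:26456538-26456597, minus strand: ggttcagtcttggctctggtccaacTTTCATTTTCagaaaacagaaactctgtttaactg
Ifi205, chr1:174031855-174031914, minus strand: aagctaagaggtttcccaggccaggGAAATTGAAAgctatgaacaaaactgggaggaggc
Isg15, chr4:156200862-156200921, minus strand: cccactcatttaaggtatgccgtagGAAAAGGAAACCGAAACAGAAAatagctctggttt
Ifit3, chr19:34583382-34583441, plus strand: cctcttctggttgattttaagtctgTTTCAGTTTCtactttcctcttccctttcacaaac
Igtp, chr11:58199497-58199555, plus strand: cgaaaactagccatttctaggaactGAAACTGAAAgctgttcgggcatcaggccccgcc

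The core was found in 14 of the 29 promoters at hand of genes that rose in both effects (48.3%), and in 12 of 28 for genes with a called positive difference that rose in Casp9 KO cells (42.9%). Those classes share 8 genes. Taken apart, the core was in 12 of 25 promoters of genes that rose in both with no call in the difference (48.0%) and in 10 of 22 of genes that had a positive difference and rose in Casp9 KO cells only (45.5%). For comparison it was in 339 of 8611 tested genes (3.94%) and 1131 of 32851 promoters in the whole table (3.44%). Among genes with a called positive difference that did not rise in Casp9 KO cells it was in 1 of 51 (1.96%), and among negative differences in 4 of 92 (4.35%). These shares describe letters in a window and were not tested.

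Lists of genes show how far this pattern ran. The counts called in each list are to be read against the shares of all 11800 genes. In Casp9 KO cells 1.05% rose and 0.407% fell, and in Bak/Bax DKO cells 1.59% rose and 0.475% fell. Differences were positive for 0.856% and negative for 1.13%, or 3.92% and 3.18% without Bak/Bax DKO replicate 2. Of 52 measured antiviral interferon-stimulated genes, 37 rose in Casp9 KO cells and 17 in Bak/Bax DKO cells, and none fell in either. The difference was called for 11, all positive, against 0.856% of all genes, and for 29, all positive, without Bak/Bax DKO replicate 2 (3.92% of all genes). Their median effect was 1.50 log2 in Casp9 KO cells and 0.69 log2 in Bak/Bax DKO cells, with 49 of 52 differences above 0, against medians of -0.02 and 0.11 over all genes. Summed over the list on the linear scale, the signal was 88578 to 99586 on Casp9 KO arrays and 35157 to 41521 on WT experiment 1 arrays, and 47079 to 66786 on Bak/Bax DKO arrays and 37129 to 41276 on WT experiment 2 arrays, so neither pair overlapped. The exceptions included Ifi27 and Cd274, the gene of the checkpoint ligand PD-L1, which rose in Bak/Bax DKO cells (1.11 and 1.20 log2) without a call in Casp9 KO cells (0.85 and 0.73 log2).

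Of 9 measured interferon-inducible GTPases, which act against intracellular microbes, 8 rose in Casp9 KO cells and 3 (Igtp, Irgm2 and Gbp2) in Bak/Bax DKO cells, and 2 differed (6 without Bak/Bax DKO replicate 2). Over all genes 1.05% and 1.59% rose, and 0.856% had a positive difference (3.92% without that array). Of 10 genes of the interferon receptor and its signalling, Irf7 and Usp18 were called in the difference, as given above. Irf9 rose in both, by 0.72 and 0.97 log2, and was not called in the difference. The kinases Jak1 and Tyk2 were called in neither effect, nor in the difference.

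Of 19 genes of MHC class I and peptide loading, 5 rose in Casp9 KO cells and 3 in Bak/Bax DKO cells, against 1.05% and 1.59% of all genes. The difference was called for none of the 19 by limma (1 had an unadjusted p under 0.05), and for 5, all positive, without Bak/Bax DKO replicate 2 (3.92% of all genes). Psmb9, an immunoproteasome subunit, was at 12.08, 12.20 and 12.27 in Casp9 KO arrays against 11.34, 11.29 and 11.44 in WT experiment 1 arrays, and at 11.23, 11.86 and 11.39 in Bak/Bax DKO arrays against 11.11, 11.46 and 11.23 in WT experiment 2 arrays. Its difference was 0.60 log2 (adjusted p = 0.24; 0.78 log2 and 0.025 without Bak/Bax DKO replicate 2). Nlrc5, the transcriptional activator of these genes, rose in both, by 1.23 and 0.75 log2.

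Of 14 genes of RNA sensing, the receptor genes Ddx58, which encodes RIG-I, and Dhx58 rose in both, and Dhx58 differed (1.32 log2, adjusted p = 0.035). Of 16 genes of DNA sensing, 3 differed, all positive, against 0.856% of all genes: Zbp1, Ifi205 and Mnda, whose Entrez identifier is that of Ifi203. Zbp1 passed the detection filter through the Casp9 KO arrays alone, as given above. Ifi205, of the interferon-inducible p200 family, was at 8.35, 8.60 and 8.70 in Casp9 KO arrays against 6.36, 6.23 and 6.25 in WT experiment 1 arrays. It was at 6.96, 7.45 and 7.32 in Bak/Bax DKO arrays against 6.51, 6.47 and 6.27 in WT experiment 2 arrays (difference 1.45 log2, adjusted p = 0.0098). The cytosolic DNA sensor Cgas and its adaptor Sting1 were called in neither effect (0.74 and 0.41 log2 in Casp9 KO, 0.33 and 0.25 log2 in Bak/Bax DKO). Of 18 chemokines and cytokines only Cxcl10 was called in the difference, with or without Bak/Bax DKO replicate 2. Ccl4, a chemokine for monocytes, rose in both (1.63 and 1.29 log2), Cxcl9 in Casp9 KO cells (1.99 log2, against 0.52 in Bak/Bax DKO cells) and Il1b in Bak/Bax DKO cells (1.36 log2, against 0.58 in Casp9 KO cells), and the differences of these 3 were not called.

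**Figure D4:**
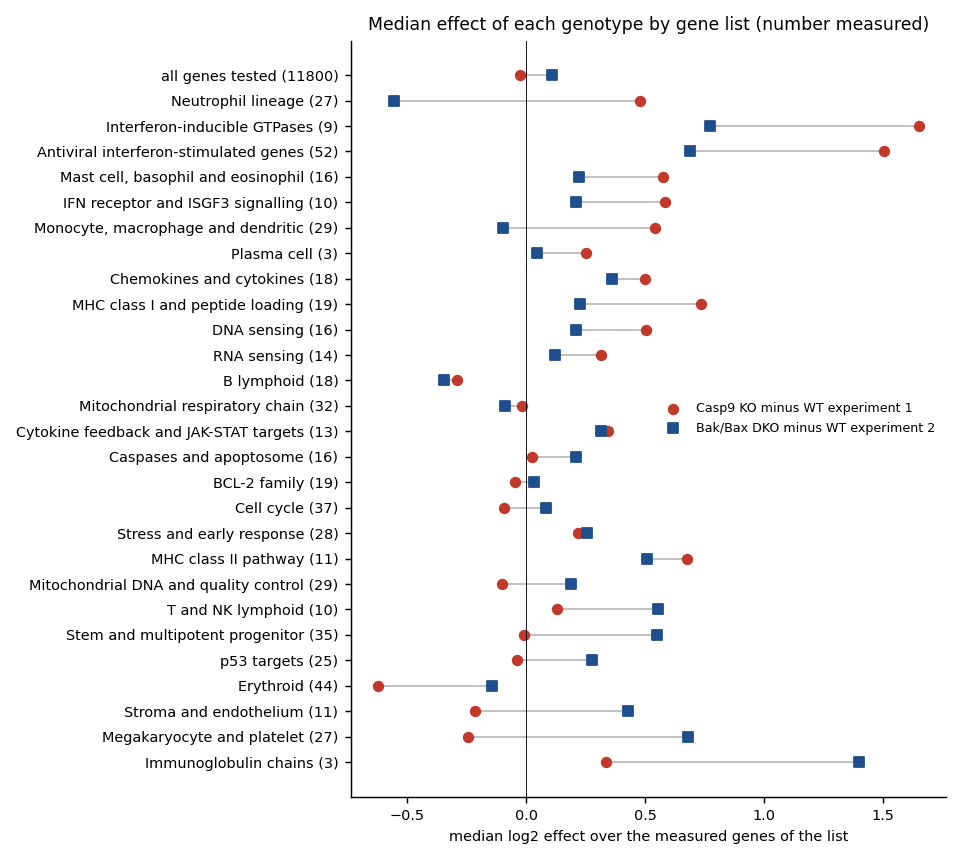
Median log2 effect over the measured genes of each list, with Casp9 KO as circles and Bak/Bax DKO as squares and the number of genes in brackets. The antiviral list lies at 1.50 and 0.69, while the neutrophil, megakaryocyte and stem cell lists have Casp9 KO and Bak/Bax DKO medians that lie apart in other ways. The medians include the array Bak/Bax DKO replicate 2.

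Among genes of megakaryocytes, the platelet-forming cells, and of stem cells, the differences called on 12 arrays were all negative. The 2 lists, with 27 and 35 of the 11800 genes and some members in common, together gave 14 of the 133 negative differences. Of 27 measured megakaryocyte and platelet genes, 8 rose in Bak/Bax DKO cells (1.59% of all genes) and none in Casp9 KO cells, where Mmrn1 fell. The difference was called for 8, all negative, against 1.13% of all genes, and for 13, all negative, without Bak/Bax DKO replicate 2 (3.18% of all genes). The median effect was -0.24 log2 in Casp9 KO cells and 0.68 log2 in Bak/Bax DKO cells. The summed linear signal was 7988 to 8052 on Casp9 KO arrays against 9251 to 9597 on WT experiment 1 arrays, and 14865 to 16892 on Bak/Bax DKO arrays against 8116 to 9082 on WT experiment 2 arrays, so that it was lower than WT with one genotype and higher than WT with the other, with no overlap.

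Mmrn1, a platelet granule protein, was called both ways: it was at 4.93, 5.18 and 4.49 in Casp9 KO arrays against 5.84, 6.14 and 6.12 in WT experiment 1 arrays. In Bak/Bax DKO arrays it was at 7.48, 7.38 and 7.90 against 6.09, 5.31 and 5.93 in WT experiment 2 arrays (difference -2.98 log2, adjusted p = 0.0022). Treml1, a receptor of platelet granules, rose in Bak/Bax DKO cells, at 8.84, 9.47 and 8.58 against 7.08, 7.64 and 7.32 in WT experiment 2 arrays. In Casp9 KO arrays it was at 7.47, 7.75 and 7.47 against 7.77, 8.36 and 8.24 in WT experiment 1 arrays, which did not overlap but was not called. Treml1, Vwf, which encodes von Willebrand factor, Cavin2, Gp5 and the thrombin receptor genes F2r and F2rl2 differed the same way, by -2.18, -1.85, -1.87, -1.43, -1.07 and -1.09 log2. A second Vwf probe, detected on 8 arrays, had a difference of -0.16 log2.

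Of 35 stem and multipotent progenitor genes, 10 rose in Bak/Bax DKO cells, and 2 rose and 2 fell in Casp9 KO cells, against 1.59%, 1.05% and 0.407% of all genes. The difference was called for 8, all negative, against 1.13% of all genes (10 negative and 1 positive, Ly6a, without Bak/Bax DKO replicate 2, against 3.18% and 3.92%). Among these were Vwf, Ndn, Robo4, Esam, Cdkn1c and Gata2. Over the whole list, 23 of 35 differences were below 0, against 7113 of 11800 over all genes. The median effect of the list was -0.01 log2 in Casp9 KO cells and 0.55 log2 in Bak/Bax DKO cells. Robo4, a receptor that anchors stem cells in the marrow, was at 5.22, 5.33 and 4.48 in Casp9 KO arrays against 6.33, 6.23 and 6.29 in WT experiment 1 arrays. It was at 7.16, 7.85 and 7.44 in Bak/Bax DKO arrays against 6.27, 6.20 and 6.21 in WT experiment 2 arrays. It thus fell to 0.414-fold with one genotype and rose 2.39-fold with the other (difference -2.53 log2, adjusted p = 0.0039). Ly6a, in the same list, went the other way, as given above.

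Emcn, an endomucin also found on stem cells and endothelium, was the single called gene of 11 in the list of stroma and endothelium. It was at 4.46, 4.63 and 4.33 in Casp9 KO arrays, none above background, against 6.80, 6.52 and 6.22 in WT experiment 1 arrays, at least 2.97-fold lower. It was at 6.57, 7.73 and 6.80 in Bak/Bax DKO arrays against 5.84, 6.31 and 6.01 in WT experiment 2 arrays, which was not called (difference -3.02 log2, adjusted p = 0.0043). Cxcl12 and Lepr, which define marrow stroma, were called in neither effect. Maged1 differed the same way (-2.56 log2). Kit itself, the marker used in the sort, had arrays of opposite direction in the 2 effects, at 11.68, 11.82 and 11.87 in Casp9 KO against 12.12, 12.10 and 12.01 in WT experiment 1, and at 12.53, 12.96 and 12.90 in Bak/Bax DKO against 12.35, 11.89 and 12.05 in WT experiment 2. Its difference of -0.98 log2 was not called (adjusted p = 0.052; -0.90 log2 and 0.025 without Bak/Bax DKO replicate 2). Another Kit probe detected on all 12 arrays had effects of -0.52 and 0.001 log2, so the opposite direction rests on 1 probe. The part of differing cell mixtures in the stem cell and megakaryocyte results was not tested.

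Erythroid genes stood lower in Casp9 KO cells, and their summed signal was lower than WT with both genotypes, with no overlap in either pair. Of 44 measured, 5 fell in Casp9 KO cells (Gfi1b, Dmtn, Add2, Hemgn and Tspan33), against 0.407% of all genes. In Bak/Bax DKO cells 0 were called by limma (5 at an unadjusted p under 0.05). The median effect was -0.62 log2 in Casp9 KO cells and -0.14 log2 in Bak/Bax DKO cells, and the summed linear signal was 66650 to 87493 on Casp9 KO arrays against 107895 to 110233 on WT experiment 1 arrays, and 79607 to 105097 on Bak/Bax DKO arrays against 109576 to 120053 on WT experiment 2 arrays. The difference was called for Mfsd2b alone, a lipid transporter of red cells and platelets (-1.38 log2, adjusted p = 0.033), against 1.13% of all genes. Without Bak/Bax DKO replicate 2 the difference was called for 5, all negative, against 3.18% of all genes, among them the master regulator Gata1 (-0.76 log2).

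Genes of the myeloid branches lay on the positive side. Of 27 neutrophil genes, Fcnb and Clec5a were called in the difference (0.856% of all genes were positive), and 16, all positive, without Bak/Bax DKO replicate 2 (3.92% of all genes). The median effect was 0.48 log2 in Casp9 KO cells and -0.56 log2 in Bak/Bax DKO cells, and 25 of 27 differences were above 0. Fcnb, the ficolin of granule-forming precursors, was at 6.71, 7.30 and 7.24 in Bak/Bax DKO arrays against 8.74, 9.28 and 9.36 in WT experiment 2 arrays, 0.243-fold, and at 8.78, 9.26 and 9.33 in Casp9 KO arrays against 8.70, 8.86 and 9.01 in WT experiment 1 arrays, where the groups overlapped (difference 2.31 log2, adjusted p = 0.0054). Clec5a, a myeloid lectin, was at 7.39, 7.05 and 7.32 in Casp9 KO arrays against 5.98, 6.43 and 6.27 in WT experiment 1 arrays. It was at 6.11, 6.58 and 5.88 in Bak/Bax DKO arrays against 6.88, 6.93 and 7.16 in WT experiment 2 arrays, and differed by 1.83 log2 (adjusted p = 0.0098). The other 3 Clec5a probes, detected on 10 to 12 arrays, had smaller differences of 1.27, 1.12 and 0.91 log2, of the same sign.

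Called only without Bak/Bax DKO replicate 2 were genes of the secondary granules, Ltf, Camp, Ngp, Lcn2 and Chil3, with differences of 2.01, 2.72, 2.54, 2.48 and 2.12 log2 in that fit. The primary granule genes Mpo, Prtn3 and Ctsg were not called in either fit (0.20, -0.07 and -0.07 log2 on 12 arrays). The summed neutrophil signal on the linear scale was 85279 to 99818 on Casp9 KO arrays and 77781 to 92586 on WT experiment 1 arrays, which overlapped, and 59313 to 78097 on Bak/Bax DKO arrays and 94142 to 99959 on WT experiment 2 arrays, which did not.

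Of 29 monocyte, macrophage and dendritic cell genes, 4 differed, all positive, against 0.856% of all genes (9 without Bak/Bax DKO replicate 2, against 3.92%). They were Irf8, the transcription factor of monocyte and dendritic progenitors, Klf4, the chemokine receptor gene Cx3cr1 and the Fc receptor gene Fcgr3, at 1.27, 1.76, 1.74 and 1.09 log2. Klf4 fell in Bak/Bax DKO cells, at 5.63, 4.99 and 5.17 against 6.35, 6.77 and 6.68 in WT experiment 2 arrays, and the other 3 were called in neither effect. A further Klf4 probe, detected on 5 arrays, had a difference of 1.12 log2. Cx3cr1 averaged 7.08 in Casp9 KO and 5.86 in WT experiment 1 arrays, and 7.05 in Bak/Bax DKO and 7.58 in WT experiment 2 arrays, so that its WT groups lay farther apart than the genotypes did. The complement genes C1qb and C1qc of macrophages rose in Bak/Bax DKO cells (1.97 and 1.11 log2) and had no call in Casp9 KO cells (0.79 and 0.64 log2), without a called difference. Of 16 mast cell, basophil and eosinophil genes, Mcpt8, a basophil protease, had a positive difference (1.23 log2, adjusted p = 0.044) and Gata2 a negative one (-1.04 log2, adjusted p = 0.034). Without Bak/Bax DKO replicate 2, the eosinophil granule genes Epx, Prg2 and Prg3 were also positive (2.42, 1.41 and 2.29 log2).

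On the lymphoid side, Bak/Bax DKO cells were set apart from Casp9 KO cells by few genes. Vpreb1, a component of the pre-B-cell receptor, fell in Bak/Bax DKO cells, at 5.40, 6.12 and 5.81 against 7.64, 8.49 and 7.53 in WT experiment 2 arrays. It overlapped with WT in Casp9 KO arrays, at 7.36, 7.45 and 7.69 against 7.70, 7.42 and 7.88 in WT experiment 1 arrays (difference 1.94 log2, adjusted p = 0.032). It was the 1 called gene of 18 in the B lymphoid list, and its partner Igll1 was called without Bak/Bax DKO replicate 2 only (2.09 log2). Of 10 T and NK genes, Nkg7, a cytotoxic granule protein, fell in Bak/Bax DKO cells alone (difference 1.87 log2, adjusted p = 0.044).

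Mature B-cell products pointed the opposite way. Of 3 measured immunoglobulin heavy chain genes, 2 rose in Bak/Bax DKO cells and 0 in Casp9 KO cells, but none was called in the difference by limma (2 of 3 at an unadjusted p under 0.05). The probe kept for Ighm, annotated abParts in the files, stands for many immunoglobulin probes under that symbol. A further 98 of them were detected on at least 3 arrays, and 96 had a difference below 0, with a median of -2.06 log2 and a range of -4.63 to 0.83 log2, against -1.15 log2 from the probe tested. Some of the 98 were detected on only 3 arrays and can have met that filter through the Bak/Bax DKO arrays alone. For such probes a difference below 0 was to be seen in any case, so the 96 are no separate support. A probe annotated AI324046, which its Entrez identifier assigns to Ighm, was at 7.13, 9.35 and 7.64 in Bak/Bax DKO arrays against 5.76, 4.35 and 4.83 in WT experiment 2 arrays, and at 4.36, 4.31 and 4.38 in Casp9 KO arrays against 5.49, 4.34 and 5.14 in WT experiment 1 arrays (difference -3.70 log2, adjusted p = 0.039). Its other probes, each detected on 3 arrays, gave -2.30 and -2.21 log2, and can have met the filter in the same way. M34473, another file name, differed by -2.61 log2 (adjusted p = 0.017). These probes can share transcripts, so they are not separate evidence. Of 11 genes of the MHC class II pathway, 4 rose in Bak/Bax DKO cells, among them Cd74, the invariant chain, at 9.90, 11.93 and 11.08 against 7.69, 8.34 and 7.73 in WT experiment 2 arrays. Cd74 was at 8.47, 8.64 and 9.14 in Casp9 KO arrays against 7.73, 8.09 and 8.17 in WT experiment 1 arrays, and its difference of -2.29 log2 was not called on 12 arrays (adjusted p = 0.082) but was without Bak/Bax DKO replicate 2 (-1.81 log2, adjusted p = 0.021). The plasma cell list had 3 measured genes, Xbp1, Mzb1 and Fkbp11, with 0 called in the difference by limma (0 at an unadjusted p under 0.05).

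The machinery of apoptosis itself moved little beyond the targets. Of 16 caspase and apoptosome genes, Casp9 alone was called in the difference. Casp4, the inflammatory caspase, and Naip2 rose in Casp9 KO cells (1.19 and 0.68 log2), and the differences of both were called without Bak/Bax DKO replicate 2 only. Apaf1 and Cycs, the partners of caspase-9, had differences of 0.02 and -0.08 log2. Of 19 genes of the BCL-2 family, Bak1, Bax and Bcl2l12 were called in the difference, and Mcl1, Bcl2 and Bcl2l1, the main survival genes, were not (-0.49, -0.09 and -0.66 log2). Of 25 p53 targets, Zmat3 was called, since it rose in Bak/Bax DKO cells at 6.80, 7.12 and 7.01 against 6.02, 5.79 and 6.08 in WT experiment 2 arrays (difference -1.28 log2, adjusted p = 0.040).

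Of 29 genes of mitochondrial DNA and quality control and 32 of the respiratory chain, 0 were called in the difference by limma with or without Bak/Bax DKO replicate 2 (2 and 0 had an unadjusted p under 0.05 on 12 arrays). Ndufb10, a respiratory complex I gene with a called difference, is in neither list and is given below. Tfam, which packages mitochondrial DNA, had a difference of -0.26 log2. Among 13 cytokine feedback and JAK-STAT target genes, 0 were called in the difference by limma (3 at an unadjusted p under 0.05). Cish and Socs3, feedback inhibitors of cytokine receptors, rose in Bak/Bax DKO cells (1.43 and 1.17 log2) and were not called in Casp9 KO cells (0.57 and 0.23 log2). Of 37 cell cycle genes 1, E2f2, was called (1.28 log2, adjusted p = 0.041), against 1.98% of all genes. E2f2 averaged 7.75 in Casp9 KO and 7.33 in WT experiment 1 arrays, and 8.38 in Bak/Bax DKO and 9.24 in WT experiment 2 arrays, so that the WT groups differed by more than either genotype from its own WT, and 2 further probes gave differences of 0.94 and 0.83 log2. Of 28 stress genes Klf4 and Klf6 were called. Klf6 rose in Casp9 KO cells, at 8.04, 7.24 and 8.25 against 6.24, 6.32 and 6.25 in WT experiment 1 arrays (difference 1.89 log2, adjusted p = 0.026). Its WT level differed between the experiments, since Bak/Bax DKO arrays had 8.31, 8.29 and 7.97, against 8.67, 8.71 and 8.13 in WT experiment 2 arrays.

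Most of the largest differences came from genes that changed in Bak/Bax DKO cells alone, several of them near Bax on chromosome 7 or Bak1 on chromosome 17. Htatip2, on chromosome 7, was at 4.85, 4.37 and 4.70 in Bak/Bax DKO arrays against 9.66, 9.88 and 9.78 in WT experiment 2 arrays, and at 9.83, 9.43 and 9.52 in Casp9 KO arrays against 9.64, 9.59 and 9.60 in WT experiment 1 arrays (difference 5.11 log2, adjusted p = 2.2e-06). Ndufb10, a subunit of respiratory complex I on chromosome 17, was at 5.31, 6.19 and 5.32 in Bak/Bax DKO arrays against 9.50, 10.09 and 9.83 in WT experiment 2 arrays (difference 4.14 log2, adjusted p = 0.00029). Another Ndufb10 probe, detected on all 12 arrays, had a difference of the opposite sign, -0.90 log2. Zfp945 on chromosome 17 and Ctu1 on chromosome 7, a tRNA-modifying enzyme, were at least 6.72-fold and 8.49-fold lower in Bak/Bax DKO arrays than in WT experiment 2 arrays. A probe named LPR in the files, placed on chromosome 11 there and elsewhere by its Entrez identifier, was at least 16.1-fold lower.

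Other probes of this kind were higher in Bak/Bax DKO cells. Snrpn and Ndn are imprinted genes of chromosome 7. Snrpn was at 7.72, 9.12 and 7.99 in Bak/Bax DKO arrays, at least 10.5-fold above the 4.34, 4.48 and 4.30 of WT experiment 2 arrays, and above background on no array of the other groups. It passed the detection filter through the Bak/Bax DKO arrays alone, so a difference there was to be seen in any case. Of the other Snrpn probes detected on at least 3 arrays, one had a difference of -2.89 log2 and one of 0.26 log2. Ndn, a regulator of stem cell quiescence, was at 7.41, 8.05 and 7.79 in Bak/Bax DKO arrays against 5.10, 5.28 and 5.35 in WT experiment 2 arrays, and at 4.49, 4.48 and 4.76 in Casp9 KO arrays against 5.60, 5.12 and 5.07 in WT experiment 1 arrays (difference -3.19 log2, adjusted p = 0.0003). The ribosomal gene Rpl13a, close to Bax, differed by -1.81 log2 by one probe and by -0.01 log2 by another, and Dkkl1, also close to Bax, by 1.68 log2, with 1.49 log2 from another probe and -0.01 log2 from one detected on 3 arrays. A Bcl2l12 probe detected on 6 arrays gave -0.11 log2, against 1.23 log2 from the main one. Meiob on chromosome 17 differed by -2.99 log2 (adjusted p = 0.0017). The probe AK205379, placed on chromosome 8 by the files and elsewhere by its Entrez identifier, differed by -4.25 log2, and by -2.24 log2 on another probe.

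Position was then tallied for all tested genes. Within 5 Mb of Bax, 13 of 98 other genes were called in the difference (13.3%, against 1.98% of all genes). Of these 98, 20 were called in the Bak/Bax DKO effect (2.07% of all genes) and 0 in the Casp9 KO effect (1.46% of all genes). Within 5 Mb of Bak1 the difference was called for 12 of 170 (7.06%). Farther than 40 Mb from Bax it was called for 8 of 458 (1.75%), and from Bak1 for 1 of 77 (1.30%). Within 5 Mb of Casp9 on chromosome 4 it was called for 1 of 61 (1.64%), with 1 gene called in the Casp9 KO effect, against 1.46% of all genes. Without Bak/Bax DKO replicate 2 the counts called in the difference near Bax, Bak1 and Casp9 were 28 of 98, 27 of 170 and 5 of 61, against 7.09% of all genes. Of the gene list of neighbours of Bak1 and Bax, 4 of 32 were called in the difference, Bcl2l12, Dkkl1, Rpl13a and Tead2, and of the 8 measured neighbours of Casp9 0 were called by limma (1 at an unadjusted p under 0.05). That 1 gene, Necap2, has another probe detected on all 12 arrays, with effects of -4.13 log2 in Casp9 KO and -0.95 log2 in Bak/Bax DKO cells and a difference of -3.18 log2, against -1.15 log2 from the probe tested. What sets these neighbours apart was not tested.

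**Figure D5:**
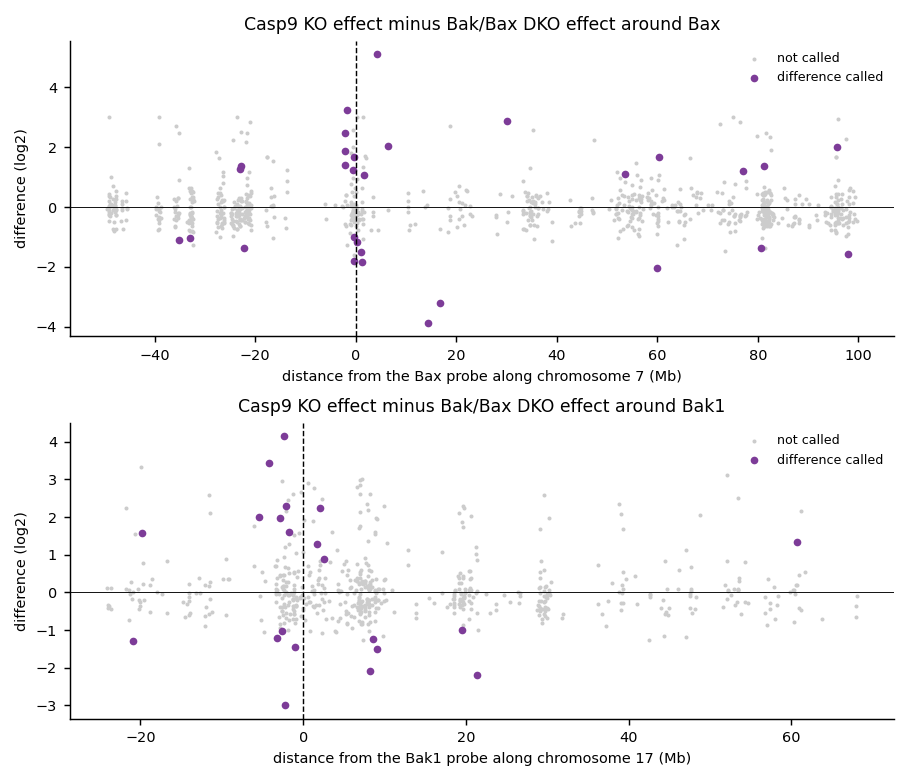
Difference of each tested gene (log2) against its distance in Mb from the Bax probe on chromosome 7 (top) and from the Bak1 probe on chromosome 17 (bottom), with called genes in purple. Called genes of both signs gather near 0, where 13 of 98 and 12 of 170 genes within 5 Mb were called.

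Besides Mmrn1 and Robo4, 3 genes were called in opposite directions. Akap13, an anchoring protein for kinase A, was at 7.76, 7.27 and 8.31 in Casp9 KO arrays against 6.14, 6.82 and 6.48 in WT experiment 1 arrays. It was at 6.44, 6.46 and 6.39 in Bak/Bax DKO arrays against 7.96, 8.11 and 7.96 in WT experiment 2 arrays (difference 2.88 log2, adjusted p = 0.0028). Its 2 WT groups lay as far apart as the genotypes, so the direction rests on each group's own WT. The same holds for 1700012B09Rik, which rose by 0.85 log2 in Casp9 KO and fell by 0.99 log2 in Bak/Bax DKO cells (difference 1.83 log2, adjusted p = 0.0054). Gm5796 fell to 0.432-fold in Casp9 KO cells and rose 2.00-fold in Bak/Bax DKO cells (difference -2.21 log2, adjusted p = 0.0012), and another of its probes, detected on 4 arrays, had a difference of -0.06 log2. Without Bak/Bax DKO replicate 2, 41 genes rose in Casp9 KO and fell in Bak/Bax DKO cells, and 28 fell in Casp9 KO and rose in Bak/Bax DKO cells.

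The mean of both effects was tested as well, since a gene may pass on the mean without passing in each effect. It was called for 185 genes (1.57%), 139 of them higher and 46 lower (375 genes, 3.18%, without Bak/Bax DKO replicate 2). Of the 185, 94 were called neither in both effects nor in the difference, 67 of them higher and 27 lower. Not every fit kept the calls given here. Each of the 234 differences kept its sign in each of the 12 fits without 1 array, while the number called was 837 without Bak/Bax DKO replicate 2 and between 91 and 321 without another array. Of the named genes, Fcgr3 and Bcl2l12 lost their calls in 11 of these fits, Irf7, Apol11b, Mnda, Nkg7, Mcpt8, Cx3cr1, Irf8 and E2f2 in 10, AI324046, Zmat3 and Mfsd2b in 9, Dhx58 and Klf6 in 8, Ifi27l2a, Vpreb1 and Gata2 in 7, Usp18 and Tead2 in 6, Klf4 in 5, M34473 and Gbp3 in 3 and Gbp5 in 1. Of genes named only as list members or shared rises, Oasl2 lost its call in 11 fits, Gp5 in 9, F2rl2 in 8, F2r in 7, Cavin2 and Cdkn1c in 6 and Mx2 in 5. Of all 234, 79 kept their calls in all 12 fits, among them Esam and the other genes named here as called in the difference.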

How the data were processed

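The authors deposited bead intensity per probe on a linear scale with a detection score for each array, and a table of normalized log2 values with gene annotation. The submitters' processing notes name GenomeStudio and limma without versions. The score column is headed as a p-value but rises with intensity, and was read as 1 minus p. The normalized log2 values were within 0.058 of those that limma's neqc (offset 16) gave here from the intensities, and were used as deposited.

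Probes with a score above 0.95 on at least 3 of 12 arrays were kept (18867). Those without a symbol were dropped (1671 of all 45281 probes have none), and the probe with the highest mean was taken per symbol. Symbols were updated through Entrez identifiers (10944 genes) or accessions (14) and kept from the files for 842, and the files' symbol was kept for 111 genes whose chromosome differed in the RefSeq table (GRCm38.p6). A model of 4 group means was fitted in limma 3.58.1 (R 4.3.3) with 8 residual degrees of freedom. The tests are two-sided, moderated by eBayes and adjusted by Benjamini-Hochberg over 11800 genes, called at 0.05. A group with no array above background gives only an "at least" fold, taken from the lowest detected signal of each array. Arrays give no counts, so their number limits the precision.

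Named genes were the targets, the 12 largest called differences of each sign, the 8 largest shared rises, all opposite calls, and up to 4 called members of each of 30 lists by smallest p (or 1 member where none was called). Other genes in the text are list members or counts of 5 or fewer, or were singled out after their values were seen. Members, lists and rules were chosen with earlier results of these data known. The main fit did not pair the arrays of a genotype and its WT by replicate number. Alternatives changed the filter, background correction, normalization, choice of probe, weights, spread estimate, replicate block and arrays used. The test was also run on simulated data, with the same spread of a gene on all 12 arrays and changes in Casp9 KO alone. That setting does not cover a deviating array such as Bak/Bax DKO replicate 2. Some genes that these rules name are not reported here.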

Additional observations from a re-analysis of the deposited data

Results flagged for a closer look

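The test of the difference between the 2 effects passed for these genes named above, which is what marks them for a second look (difference of the Casp9 KO effect minus the Bak/Bax DKO effect, log2, adjusted p under 0.05, all 12 arrays). Cxcl10, Apol9b, Zbp1 and Snrpn met the detection filter only through the genotype where they are high. For them a difference was to be seen in any case, and its fitted size is not a measured one. Among genes that rose in Casp9 KO cells without a call in Bak/Bax DKO cells, the differences (log2) were those of Cxcl10 (3.23), Apol9b (2.82), Ifi27l2a (2.61), Apol11b (2.51), Zbp1 (2.37), Sp100 (1.27), Gbp5 (1.27), Gbp3 (1.66), Mnda (1.43), Clec5a (1.83), Mcpt8 (1.23) and Klf6 (1.89). Among genes that rose in both but further in Casp9 KO cells they were Rsad2 (2.68), Gm4951 (2.54), Usp18 (2.03), Irf7 (1.99), Dhx58 (1.32) and Ifi205 (1.45). Genes that fell in Bak/Bax DKO cells without a call in Casp9 KO cells were Bak1 (2.18), Bax (1.86), Htatip2 (5.11), LPR (4.31), Ndufb10 (4.14), Zfp945 (3.44), Ctu1 (3.23), Bcl2l12 (1.23), Vpreb1 (1.94), Nkg7 (1.87), Fcnb (2.31), Klf4 (1.76), E2f2 (1.28) and Dkkl1 (1.68). Genes that rose in Bak/Bax DKO cells without a call in Casp9 KO cells were AK205379 (-4.25), Snrpn (-3.87), AI324046 (-3.70), Ndn (-3.19), Meiob (-2.99), M34473 (-2.61), Zmat3 (-1.28), Treml1 (-2.18), Vwf (-1.85), Gata2 (-1.04), Rpl13a (-1.81) and Tead2 (-0.99). Genes that fell in Casp9 KO cells without a call in Bak/Bax DKO cells were Casp9 (-3.26), Emcn (-3.02) and Maged1 (-2.56). Genes called in neither effect but in their difference were Mfsd2b (-1.38), Fcgr3 (1.09), Cx3cr1 (1.74) and Irf8 (1.27). The genes called in opposite directions were Akap13 (2.88), Mmrn1 (-2.98), 1700012B09Rik (1.83), Gm5796 (-2.21) and Robo4 (-2.53). For Kit the arrays of the 2 effects moved in opposite directions on every array, while the test of its difference (-0.98) did not pass. A second Kit probe had a Bak/Bax DKO effect of 0.001 log2 and does not show this. No group has over 3 arrays, so these flags include no search, gene by gene, for a single outlying array. Whole arrays were compared as given above.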

How the results depend on the processing

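The counts of called genes depended on the processing. On 12 arrays they were 234 for the difference, 172 for the Casp9 KO effect, 244 for the Bak/Bax DKO effect, 41 for the same direction in both and 185 for the mean of both. Leaving out each array in turn gave ranges of 91 to 837, 85 to 687, 86 to 477, 12 to 65 and 130 to 375, each with its highest value without Bak/Bax DKO replicate 2. Array weights gave 942, 945, 576, 76 and 564. With the replicate block the first 4 counts were 70, 106, 119 and 27. In their deviations from the group means, same-numbered arrays of a genotype and its WT correlated at -0.068 to 0.248. Differently numbered arrays correlated at -0.215 to 0.146. In experiment 2 the ranges were 0.043 to 0.096 for same-numbered and -0.063 to 0.003 for differently numbered arrays. Whether the numbers pair arrays is therefore not settled. Fitting only the 6 arrays of each experiment gave 572, 16 and 1 for the Casp9 KO effect, the Bak/Bax DKO effect and both, and Bak/Bax DKO replicate 2 is 1 of those 6. Median-centred arrays gave 87 for the Bak/Bax DKO effect and 10 for both, and their 156 differences were 80.1% positive, against 43.2% of the 234. The median difference of all genes was 0.15 log2 with that centring. The medians of the caspase, BCL-2, cell cycle, mitochondrial DNA, MHC class II, JAK-STAT, stress and Bak1/Bax neighbour lists change sign under that centring and are not read. Of the alternatives chosen after seeing the data, picking probes again without Bak/Bax DKO replicate 2 gave 826, 687, 468, 66 and 374, median-centring without it gave 477 and 439 for the difference and the Casp9 KO effect and 281 for the mean, and the Eif2s3y level as a covariate gave 105, 135 and 23 for the 2 effects and both. The share of positive differences was 54.0% under array weights, 55.2% and 23.99% on leaving out Bak/Bax DKO replicate 2 or replicate 1, 54.3% under the replicate block, 56.1% when probes were picked again and 62.7% when median-centred without that array. Among named genes 1 reversed: for Snrpn, picking probes again chose another probe, whose difference was 0.20 log2 (adjusted p = 0.71). Of the 234 genes, 234 stayed called with neqc, 173 with no background correction, 89 when median-centred and 68 with the replicate block, all with the same sign. Signal near background limits the folds of genes given as "at least".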
